A study of Mus musculus with 5 samples.

Results

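The 40 genes described here encode the machinery that builds peroxisomes and the lipid enzymes, transporters and carnitine transferases that work in or with them. They were chosen with earlier results of these data known. A row was found by name for all 40 among the 24808 gene rows of the deposited count tables. They comprise 12 assembly factors of the Pex family, 18 oxidation enzymes, acyl-CoA thioesterases and ABC carriers, and 10 others, namely catalase, both carnitine acyltransferases, the acyl-CoA synthetase Slc27a2, the reductase Pecr, the 3 ether lipid enzymes and the membrane proteins Pxmp2 and Pxmp4.

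RNA of whole frozen liver was sequenced from C57BL/6 mice labelled as 16 weeks old. The first group had received carbon tetrachloride (CCl4) together with givinostat, an inhibitor of histone deacetylases, and holds 2 libraries. Its controls had received CCl4 alone, a hepatotoxin that scars the rodent liver, and hold 3 libraries, so both groups carry the CCl4 injury and no uninjured liver was analysed here. The sources used here do not give sex, doses or feeding, and nothing in the labels says how the libraries were batched. Library totals were 21430125 and 21773867 counts with CCl4+givinostat and 18634801 to 21099040 counts with CCl4, and the lowest count of any of the 40 genes in any library was 84. Albumin took 7.28 and 7.42% of the counts with CCl4+givinostat and 7.01 to 8.14% with CCl4, and 7 hepatocyte markers had a median log2 fold change of -0.00045.

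Peroxisomes are single-membrane organelles, abundant in hepatocytes, that shorten very long-chain, branched and dicarboxylic fatty acids, finish the side chain of bile acids and start the synthesis of ether lipids. Their matrix enzymes are made in the cytosol and imported folded by the receptors Pex5 and Pex7, whereas Pex3, Pex16 and Pex19 insert the membrane proteins and Pex11 proteins help the organelle to elongate and divide. In rodent liver many of the oxidation genes are induced by fatty acids and fibrate drugs through the nuclear receptor PPARα, which pairs with RXRα.

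With givinostat the peroxisomal transcripts lay mostly higher, by amounts that were modest and uneven between genes. Of the 40 genes, 29 had a higher and 11 a lower fitted value, where 46.2% of all genes tested lay above 0. The log2 fold changes ran from -0.61 for Crot to 1.04 for Acaa1b, with a median of 0.24 against -0.02 over all 13590 genes tested. By the quasi-likelihood test of edgeR, adjusted over all genes by the Benjamini-Hochberg method, 0 of the 40 passed in either direction, where 0.00736% of all genes passed as higher and 0% as lower. At an unadjusted p under 0.05, 13 of the 40 were higher (32.5%, against 3.52% of all genes tested) and 1 was lower (2.5%, against 3.93%). The 13 became 7 without CCl4+givinostat replicate 1 (1.41% of all genes higher in that fit) and likewise 7 without CCl4+givinostat replicate 2 (2.51% of all genes). The 1 became 2 without CCl4+givinostat replicate 1 or without CCl4 replicate 3. DESeq2, over the same genes, called Acot3, Acaa1b and Acaa1a higher and Crot lower, against 0.508% of all genes called higher and 0.581% called lower. In 21 of the 40 genes both CCl4+givinostat libraries lay above all 3 CCl4 libraries, and in 4 both lay below (11.7% of all genes tested in each direction). Together the 40 genes took 1.97 and 2.11% of all counts with CCl4+givinostat and 1.60 to 1.80% with CCl4. In bulk liver RNA, a change in the number of cells of a type and a change in RNA per cell cannot be told apart.

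**Figure D1:**
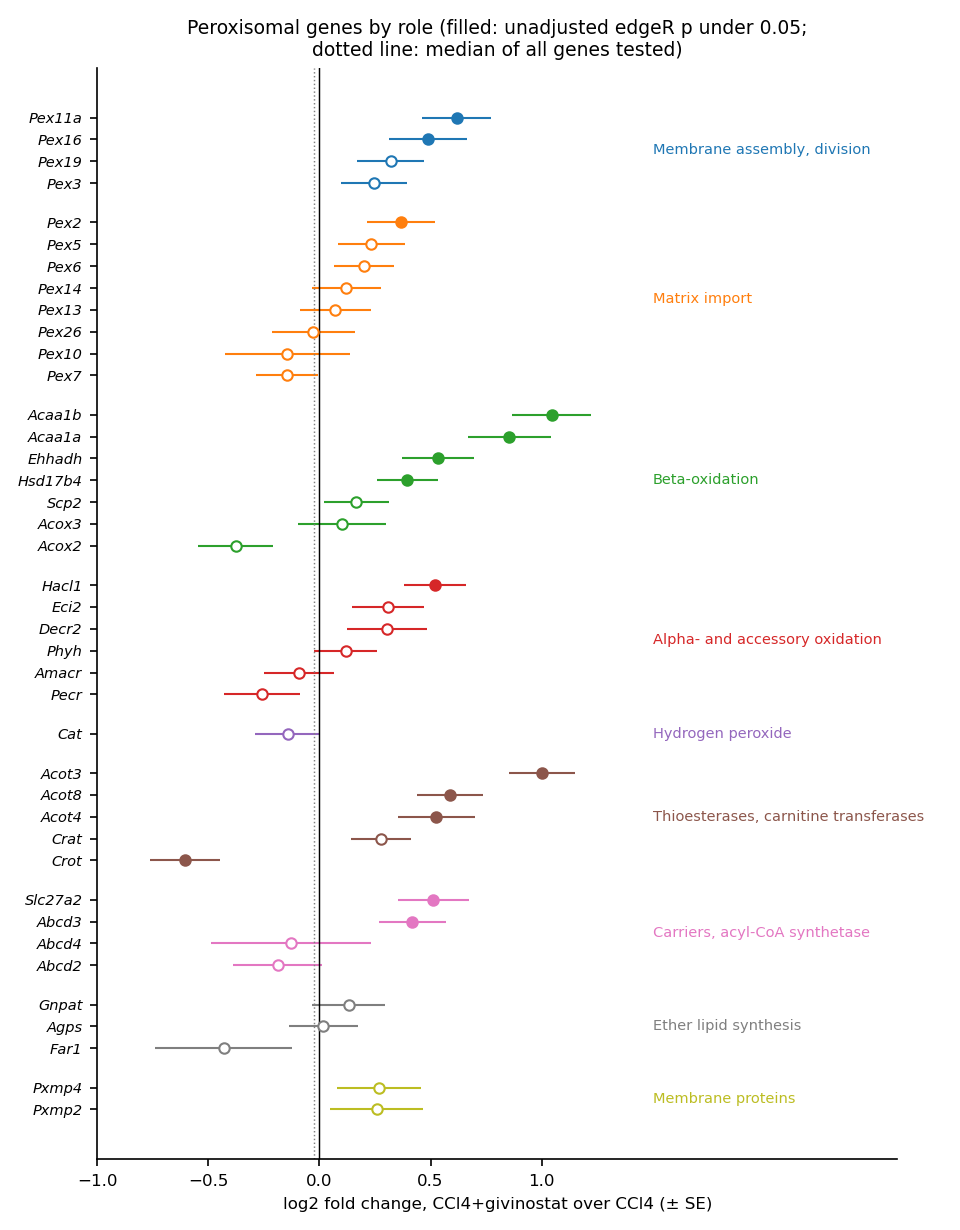
Log2 fold change of each of the 40 genes (CCl4+givinostat over CCl4, bars ± SE of the edgeR fit over 2 and 3 libraries), grouped and coloured by role, with filled points at an unadjusted p under 0.05 and a dotted line at the median of all genes tested. The 13 filled points right of 0 lie in every role except catalase, ether lipid synthesis and the membrane proteins, with Acaa1b and Acot3 farthest right, and Crot is the filled point left of 0.

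Within the beta-oxidation chain, Acaa1b and Acaa1a, thiolases that release acetyl-CoA in the last step, stood highest above the controls. Acaa1b had 3047 and 3058 CPM (counts scaled to library size, with TMM factors) with CCl4+givinostat, against 1314, 1349 and 1778 CPM with CCl4. The givinostat libraries nearly coincided and lay far above CCl4 replicate 3, the highest control, for a log2 fold change of 1.04 ± 0.18 (SE; edgeR unadjusted p = 0.000331, adjusted p = 0.169; DESeq2 adjusted p = 8.54e-05). EdgeR called Acaa1b with the replicate number as a block (adjusted p = 0.00181), with no low-count filter (0.0277) and without CCl4 replicate 1 (0.0424). Acaa1a had 429 and 301 CPM with CCl4+givinostat, against 178, 207 and 221 CPM with CCl4. Its groups did not overlap although the givinostat libraries differed by more than the whole range of the controls, and the log2 fold change was 0.85 ± 0.19 (SE; edgeR unadjusted p = 0.00169, adjusted p = 0.258; DESeq2 adjusted p = 0.0156). The difference was 0.58 without CCl4+givinostat replicate 1 and 1.09 without CCl4+givinostat replicate 2. The thiolase genes are close paralogs on chromosome 9 (Acaa1b at 119148023 to 119157093, minus strand, and Acaa1a at 119339676 to 119350299, plus strand, GRCm38). Of the 50-base windows of their longest coding transcripts, 46.2% in Acaa1b and 35.1% in Acaa1a recur in another gene, chiefly in each other, so reads may have been split between them.

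The multifunctional enzymes that act before the thiolases were higher by less. Ehhadh, the bifunctional enzyme of the straight-chain route, had 3479 and 3857 CPM with CCl4+givinostat, against 2332, 2409 and 2862 CPM with CCl4, a log2 fold change of 0.53 ± 0.16 (SE; edgeR unadjusted p = 0.0108, adjusted p = 0.468). Hsd17b4, the D-bifunctional enzyme that also serves branched acids and bile acid precursors, had 699 and 650 CPM with CCl4+givinostat, against 537, 491 and 510 CPM with CCl4 (0.39 ± 0.14, SE; edgeR unadjusted p = 0.0206, adjusted p = 0.528). For both enzymes all givinostat libraries lay above all controls. Scp2, which encodes a thiolase for branched substrates and a lipid carrier, had 2741 and 2573 CPM with CCl4+givinostat, against 2342, 2243 and 2516 CPM with CCl4. Its groups were separated only by a narrow margin, and its log2 fold change of 0.17 ± 0.15 (SE) was close to its error. Some 41.4% of its 50-base windows recur elsewhere, chiefly in the pseudogene Scp2-ps2.

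The oxidases of the first step did not share this direction. Acox2, the oxidase of bile acid precursors and branched acids, had 156 and 183 CPM with CCl4+givinostat, against 244, 231 and 186 CPM with CCl4, a log2 fold change of -0.38 ± 0.17 (SE; edgeR unadjusted p = 0.0557, adjusted p = 0.690). Both givinostat libraries lay below the controls, but CCl4+givinostat replicate 2 was within a few CPM of CCl4 replicate 3. Acox3, the oxidase of pristanoyl-CoA, was expressed at 24.0 and 18.9 CPM with CCl4+givinostat, against 17.4, 23.5 and 19.0 CPM with CCl4, and its groups overlapped.

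Alpha-oxidation removes 1 carbon from branched acids such as phytanic acid. Hacl1, the lyase that cleaves the hydroxylated intermediate, had 488 and 448 CPM with CCl4+givinostat, against 305, 341 and 333 CPM with CCl4, a log2 fold change of 0.52 ± 0.14 (SE; edgeR unadjusted p = 0.00538, adjusted p = 0.379). Its groups were well apart, but Gm49387, a gene model of the same strand, covers 31.1% of its exonic bases, so some reads may not be its own. Phyh, the hydroxylase that precedes it in the route, had 1324 and 1223 CPM with CCl4+givinostat, against 1193, 1205 and 1121 CPM with CCl4, a log2 fold change of only 0.12 ± 0.14 (SE). Amacr, the racemase that makes branched acyl-CoAs fit for oxidation, lay at -0.09 ± 0.16 (SE) on the same scale, with 142 and 143 CPM with CCl4+givinostat inside the 129 to 165 CPM of the controls. Among auxiliary enzymes of unsaturated acids, Eci2, an enoyl-CoA isomerase, had 425 and 350.1 CPM with CCl4+givinostat, against 303, 284 and 352 CPM with CCl4. Its log2 fold change was 0.31 ± 0.16 (SE), with an edgeR unadjusted p of 0.0915. Here CCl4+givinostat replicate 2 fell within the controls. Decr2, a dienoyl-CoA reductase, lay at a log2 fold change of 0.30 ± 0.18 (SE), and Pecr, an enoyl-CoA reductase, at -0.26 ± 0.17 (SE).

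Catalase (Cat), which breaks down the hydrogen peroxide made by the oxidases, had 1761 and 1722 CPM with CCl4+givinostat, against 1859, 2038 and 1874 CPM with CCl4. Both givinostat libraries lay just below the controls, and the log2 fold change was -0.14 ± 0.14 (SE; edgeR unadjusted p = 0.350, adjusted p = 0.919). Catalase thus lay on the other side of 0 from Acaa1b and Ehhadh, which are also abundant transcripts of matrix enzymes.

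**Figure D2:**
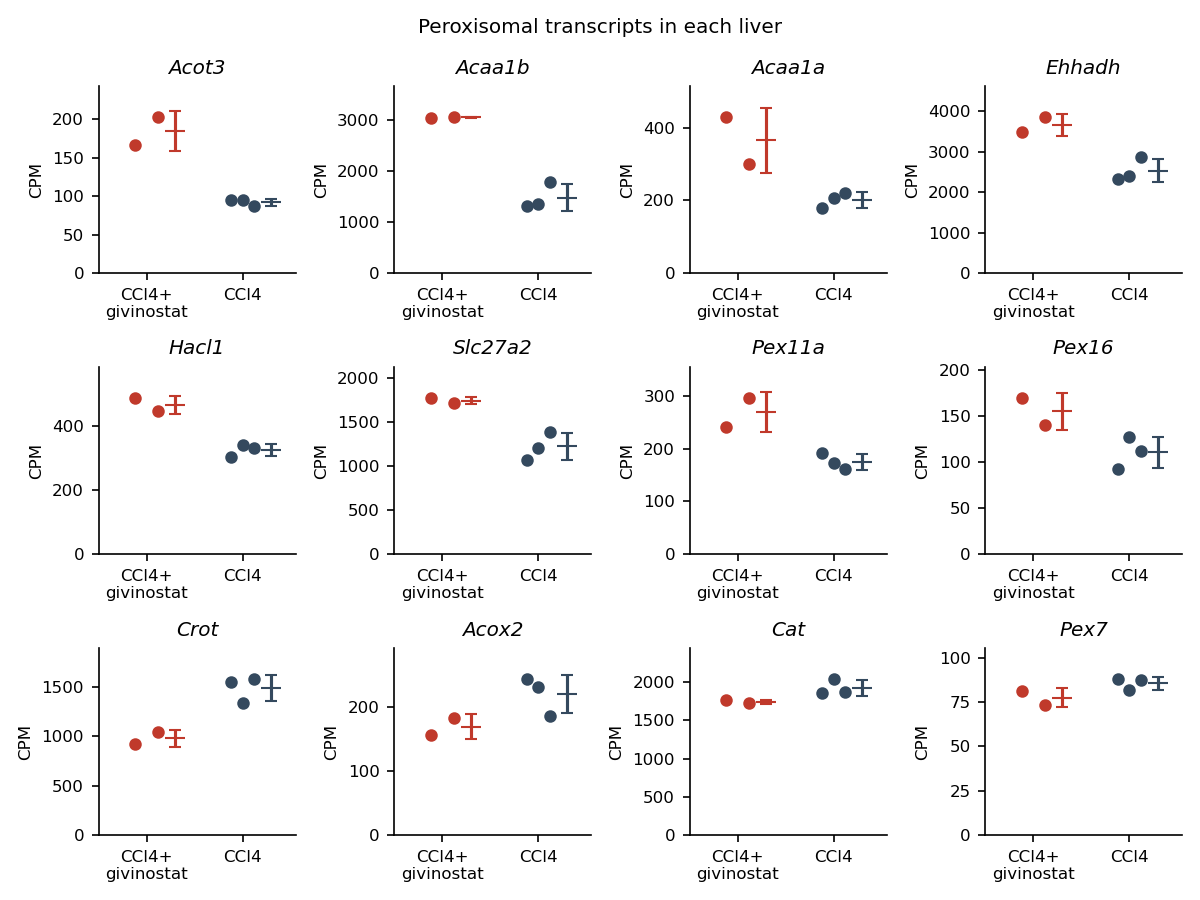
CPM of 12 of the genes in each library (points), with the mean and SD of each group beside them (bars; 2 CCl4+givinostat and 3 CCl4 libraries). The groups do not overlap in any of the 12 panels, with CCl4+givinostat higher in the first 8 (Acot3 to Pex16) and lower in Crot, Acox2, Cat and Pex7.

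Acyl-CoA thioesterases, which free fatty acids from coenzyme A, were higher throughout. Acot3, a thioesterase for long-chain acyl-CoA, had the smallest p of the 40 genes, with 166 and 203 CPM with CCl4+givinostat against 95.3, 94.3 and 86.9 CPM with CCl4. The controls were tightly grouped, and the log2 fold change was 1.00 ± 0.15 (SE; edgeR unadjusted p = 0.000123, adjusted p = 0.140; DESeq2 adjusted p = 1.40e-05). EdgeR called Acot3 with no low-count filter (adjusted p = 0.0267) and without CCl4 replicate 1 (0.0112). Acot8, a thioesterase of broad chain length, had 50.02 and 42.8 CPM with CCl4+givinostat, against 30.7, 30.6 and 31.3 CPM with CCl4 (0.59 ± 0.15, SE; edgeR unadjusted p = 0.00380, adjusted p = 0.345). Acot4, which prefers dicarboxylic substrates such as succinyl-CoA, had 85.1 and 118 CPM with CCl4+givinostat, against 75.4, 66.9 and 69.1 CPM with CCl4 (0.53 ± 0.17, SE; edgeR unadjusted p = 0.0155, adjusted p = 0.505). For Acot4 the size rested on CCl4+givinostat replicate 2, and the log2 fold change was 0.27 without it. Acot3 and Acot4 are neighbours on chromosome 12 (84052144 to 84060402 and 84038379 to 84048601, both plus strand, GRCm38). Some 21.7 and 14.4% of their 50-base windows recur in other genes, their Acot paralogs among them. Gm49366, a gene model of the same strand, covers 11.5% of the exonic bases of Acot3. The opposite-strand 4732463B04Rik covers 9.1% in Acot3 and 9.2% in Acot4. In Acot8 the opposite-strand gene Snx21 covers 12.3%, and 17.7% of the 50-base windows recur elsewhere. Some reads of these genes may thus not be their own.

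The carnitine transferases, which convert shortened acyl-CoAs to carnitine esters for export to mitochondria, went separate ways. Crot, the octanoyltransferase, had 917 and 1041 CPM with CCl4+givinostat, against 1550.4, 1340.2 and 1579 CPM with CCl4. It was the only one of the 40 genes below its controls at an unadjusted p under 0.05, and its log2 fold change was -0.61 ± 0.16 (SE; edgeR unadjusted p = 0.00476, adjusted p = 0.372; DESeq2 adjusted p = 0.0425), and it lay between -0.70 and -0.52 with each library left out. Crat, the acetyltransferase, had 193 and 196 CPM with CCl4+givinostat, against 172, 159 and 151 CPM with CCl4 (0.28 ± 0.14, SE; edgeR unadjusted p = 0.0746). The groups of both genes did not overlap, on opposite sides.

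Among the proteins that bring substrates to the organelle, Slc27a2, which transports and activates very long-chain fatty acids, had 1772 and 1716 CPM with CCl4+givinostat, against 1073, 1210.1 and 1386 CPM with CCl4 (log2 fold change 0.51 ± 0.16, SE; edgeR unadjusted p = 0.0124, adjusted p = 0.493). An opposite-strand gene model, Gm26697, overlaps 11.2% of its exonic bases. Abcd3, the most abundant of the 3 ABC carrier transcripts and a transporter of branched and dicarboxylic acyl-CoAs, had 810 and 824 CPM with CCl4+givinostat, against 688, 570 and 576 CPM with CCl4 (0.42 ± 0.15, SE; edgeR unadjusted p = 0.0235, adjusted p = 0.554). Both genes had every givinostat library above every control. Abcd2, a carrier of very long-chain acyl-CoA, had 53.2 and 78.7 CPM with CCl4+givinostat, against 65.4, 80.4 and 79.5 CPM with CCl4. Abcd4, whose human protein works in lysosomal cobalamin export rather than in the peroxisome, had 9.97 and 6.87 CPM with CCl4+givinostat, against 5.17, 10.3 and 12.2 CPM with CCl4. Both overlapped between groups, and the sign of each changed with 1 library left out (Abcd2 at 0.068 without CCl4+givinostat replicate 1, and Abcd4 at 0.13 without CCl4 replicate 3 and 0.12 without CCl4+givinostat replicate 2).

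The assembly factors ranged from -0.15 to 0.62 in log2 fold change. All 4 genes of membrane assembly and division lay higher in both givinostat libraries than in every control, with a median log2 fold change of 0.40. Groups lay apart in that direction for 11.7% of all genes tested. Pex11a, the inducible division factor, had 242 and 296 CPM with CCl4+givinostat, against 192, 173 and 162 CPM with CCl4 (0.62 ± 0.15, SE; edgeR unadjusted p = 0.00381, adjusted p = 0.345; DESeq2 adjusted p = 0.0642). Pex16, which recruits Pex3 to membranes, had 169.8 and 141 CPM with CCl4+givinostat, against 93.1, 127 and 112 CPM with CCl4 (0.49 ± 0.17, SE; edgeR unadjusted p = 0.0229, adjusted p = 0.546). Pex19, the cytosolic chaperone of membrane proteins, and Pex3, its docking site, lay at log2 fold changes of 0.32 ± 0.15 and 0.25 ± 0.15 (SE), short of an unadjusted p of 0.05.

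The 8 factors of matrix import had a median log2 fold change of 0.10, with 5 higher and 3 lower, and their upper values overlapped those of the membrane assembly genes. Pex2, part of the ubiquitin ligase that recycles the import receptor, had 61.6 and 56.5 CPM with CCl4+givinostat, against 41.5, 45.2 and 50.7 CPM with CCl4, and was the only one at an unadjusted p under 0.05 (0.37 ± 0.15, SE; edgeR unadjusted p = 0.0421, adjusted p = 0.645). Its ligase partner Pex10 was at 5.31 and 4.67 CPM with CCl4+givinostat, inside the 3.98 to 6.54 CPM of the controls. The import receptors lay on opposite sides of 0. Pex5, the receptor for most matrix enzymes, had 146 and 139 CPM with CCl4+givinostat, against 138, 115 and 111 CPM with CCl4 (0.23 ± 0.15, SE; edgeR unadjusted p = 0.163). Pex7, the receptor for a small set that includes Phyh, Agps and the thiolases, had 81.1 and 73.5 CPM with CCl4+givinostat, against 87.9, 81.5 and 87.3 CPM with CCl4 (-0.15 ± 0.14, SE). Neither receptor reached an unadjusted p of 0.05. The docking factors Pex13 and Pex14, the AAA ATPase Pex6 and its membrane anchor Pex26 had log2 fold changes of 0.07, 0.12, 0.20 and -0.03, and Pex26 turned positive under several settings.

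The ether lipid enzymes showed no shared direction. Far1, which supplies the fatty alcohol, had 7.91 and 7.68 CPM with CCl4+givinostat, against 8.53, 7.79 and 15.2 CPM with CCl4. Its log2 fold change of -0.43 ± 0.31 (SE) came from CCl4 replicate 3 alone and was -0.057 without that library. Gnpat, the acyltransferase of the first step, had 44.1 and 48.7 CPM with CCl4+givinostat, against 48.6, 37.8 and 40.6 CPM with CCl4, and Agps, which forms the ether bond, stayed between 18.1 and 19.2 CPM in all 5 libraries. The membrane proteins Pxmp4 and Pxmp2 lay at log2 fold changes of 0.27 ± 0.19 and 0.26 ± 0.21 (SE) with overlapping groups. Pxmp4 had 171 and 177 CPM with CCl4+givinostat, against 173, 148 and 113 CPM with CCl4. Pxmp2, which forms a channel in the peroxisomal membrane, had 133 and 94.7 CPM with CCl4+givinostat, against 84.8, 117 and 83.7 CPM with CCl4.

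Set against each other, the oxidation enzymes, thioesterases and ABC carriers had a median log2 fold change of 0.35 and the assembly factors 0.22. At an unadjusted p under 0.05, 9 of the 18 enzymes and carriers (50%) and 3 of the 12 assembly factors (25%) were higher. The share of all genes tested was 3.52%. On that threshold 0 of either class were lower, against 3.93% of all genes tested. Without CCl4 replicate 1, where 7.8% of all genes were higher, the counts of higher genes were 9 and 5. Without CCl4 replicate 2 they were 6 and 2 (2.35% of all genes). Without CCl4 replicate 3 they were 8 and 3 (3.7% of all genes). Both classes held separated genes in similar shares, with CCl4+givinostat above every control in 12 of 18 (66.7%) and in 7 of 12 (58.3%). Of all genes tested, 11.7% were separated in that direction. The medians differed by 0.13, and by 0.082 without CCl4+givinostat replicate 1 and 0.20 without CCl4+givinostat replicate 2. The enzymes and carriers were also the more spread, from -0.38 to 1.04 (middle 50% from 0.11 to 0.53), where the assembly factors ran from -0.15 to 0.62 (middle 50% from 0.05 to 0.33). The difference between the classes was not tested, since the genes of a class are not replicates. The 10 other genes had a median of 0.07.

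**Figure D3:**
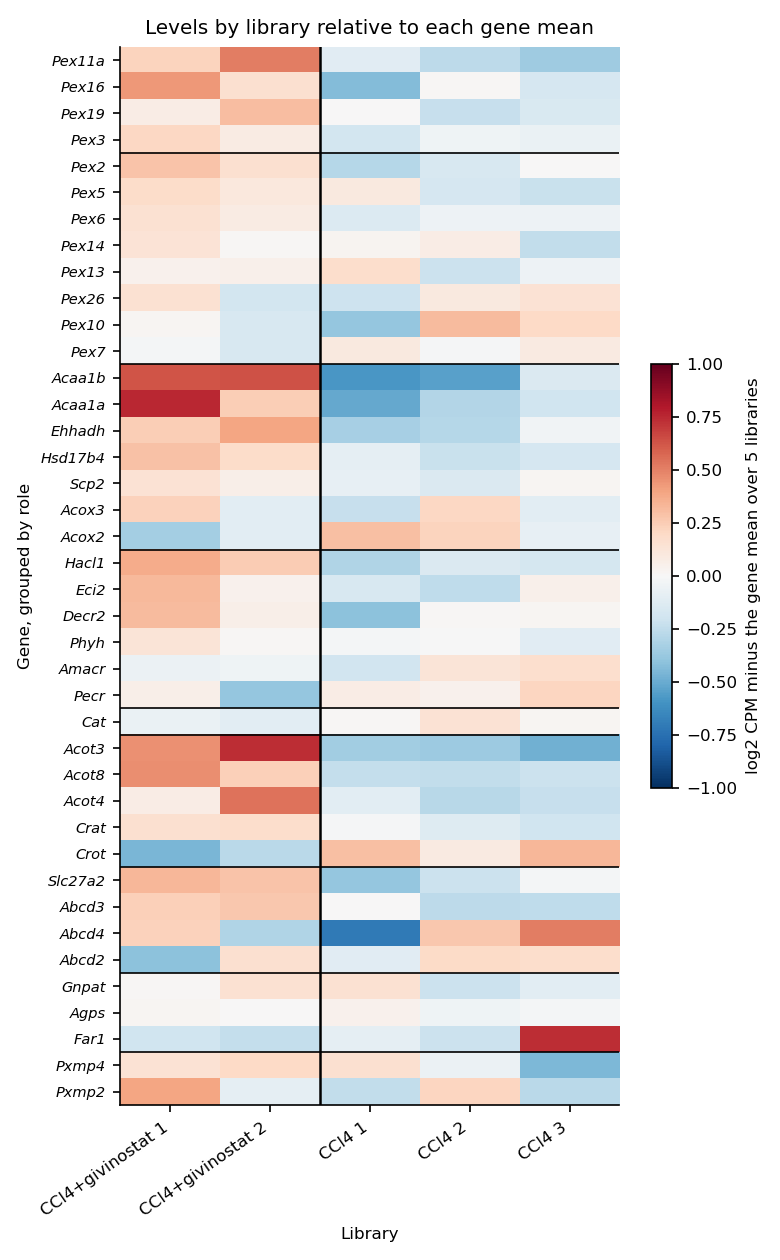
Level of each gene in each library as log2 CPM minus the mean of that gene over the 5 libraries (colour), with genes grouped by role between horizontal lines and the CCl4+givinostat libraries left of the vertical line. Acaa1b, Acaa1a and Acot3 are red in both CCl4+givinostat libraries and blue in the CCl4 libraries, Crot is the reverse, and Far1 is red in CCl4 replicate 3 alone.

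Averaged over the genes of a class, the centred log2 CPM of the enzymes and carriers was 0.23 and 0.18 with CCl4+givinostat, against -0.23, -0.11 and -0.07 in CCl4 replicates 1, 2 and 3. The assembly factors were at 0.16 and 0.08 with CCl4+givinostat, against -0.11, -0.05 and -0.07 with CCl4. CCl4 replicate 1 was the lowest control in both classes, and it was the lowest of the 3 controls in 9 of the 18 enzymes and carriers and 6 of the 12 assembly factors. Subtracting the assembly factors from the enzymes and carriers left 0.07 and 0.10 with CCl4+givinostat, against -0.12, -0.06 and 0.0039 with CCl4. This difference also separated the groups, but its gap to CCl4 replicate 3 was smaller than the range among the controls.

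**Figure D4:**
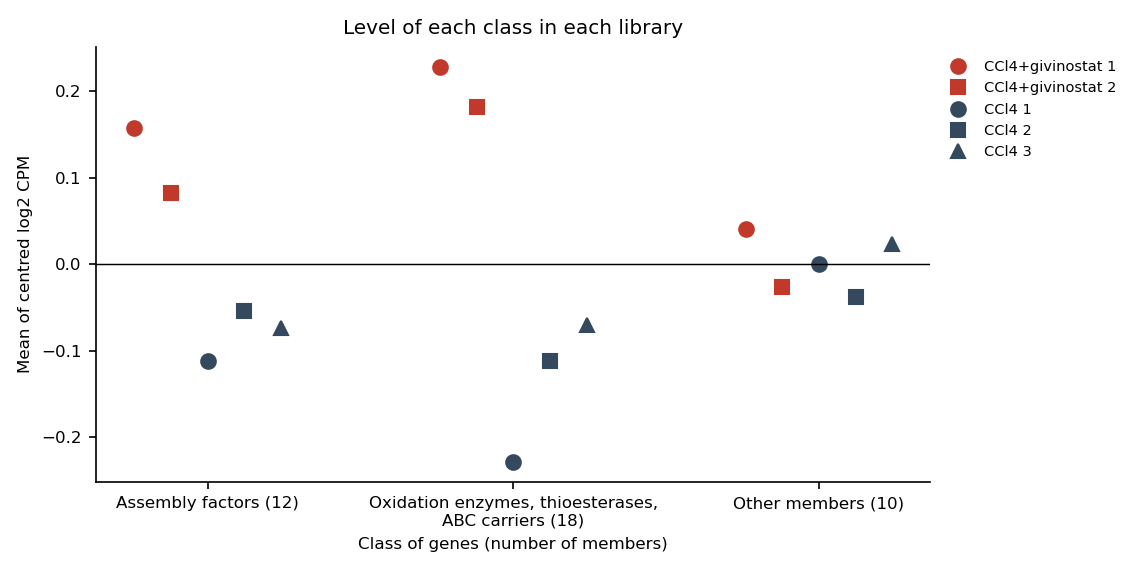
Mean over the genes of each class of log2 CPM centred on each gene, by library (CCl4+givinostat in red, CCl4 in dark blue; marker shapes give the replicate). Both CCl4+givinostat libraries lie above the 3 CCl4 libraries for the assembly factors and for the enzymes and carriers. For the other members CCl4+givinostat replicate 1 lies above the CCl4 libraries and replicate 2 among them.

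Transcript levels spanned 3 orders of magnitude when divided by exonic length. On CPM per kilobase of exon, Acaa1b was the most abundant with CCl4+givinostat at 1556, against 755 with CCl4, where it stood second to Ehhadh (1230.3 with CCl4+givinostat and 850.1 with CCl4). Scp2, Phyh and Cat followed, at 667 to 764 with CCl4+givinostat and 620 to 736 with CCl4. Every assembly factor was below 100 on this scale, with Pex16 the highest at 87.6 with CCl4+givinostat and 62.4 with CCl4, and Pex10 the lowest at 1.51 with CCl4+givinostat and 1.67 with CCl4. Far1, at 0.968 with CCl4+givinostat and 1.31 with CCl4, and Abcd4, at 1.05 with CCl4+givinostat and 1.15 with CCl4, closed the list.

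**Figure D5:**
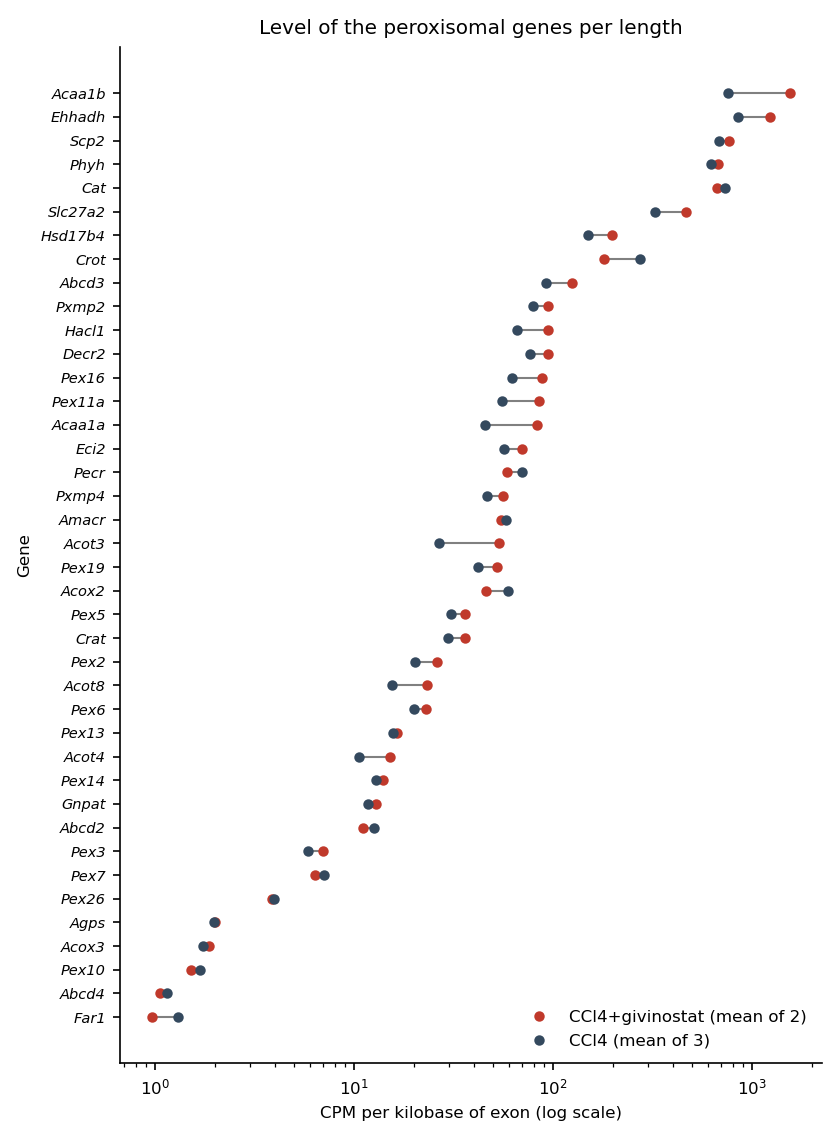
Mean CPM per kilobase of exon on a log scale for each of the 40 genes, with CCl4+givinostat (2 libraries) in red, CCl4 (3 libraries) in dark blue and a line joining them. The abundant end holds oxidation enzymes and catalase, the assembly factors lie below 100, and the longest lines belong to Acaa1b, Acaa1a and Acot3.

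Promoters were compared because PPARα and RXRα bind direct repeats spaced by a single base, and because the 4 genes with the smallest p are shown to let their start sites be read beside their values. The window ran from 250 bases before to 50 after the start site (RefSeq, GRCm38.p6, found for 32 of the 40 genes), and the half-site AGGTCA, a spacer of 1 base of any kind and the half-site again were searched on both strands with up to 2 mismatches. A match was found for 3 of the 32 genes (9.38%), against 3.87% of the 10646 tested genes with a promoter, and for 0 of 10 assembly factors. The matches were these, each written 5′ to 3′ on the strand that reads as the repeat. The base of each match farthest upstream in its gene lay at -13 (Acot4, opposite strand), 10 (Acox2) and -204 (Cat) from the start site.
Acot4: CGGCCAAAGGTCA
Acox2: AGGACAGAGGTGA
Cat: AGGTCAGAGAACA
Of the 3 genes, Acot4 was higher with givinostat at an unadjusted p under 0.05 and the other two lay lower. None of the 4 promoters printed next, those of Acot3 (chr12:84051894-84052193, plus strand, the first of a pair of start sites), Acaa1b (chr9:119157044-119157343, minus strand), Acaa1a (chr9:119341044-119341343, plus strand) and Acot8 (chr2:164804832-164805131, minus strand), held a match. Capitals mark CCAAT or its complement ATTGG, a common promoter element, which was found in 56.2% of the 32 genes and in 42.5% of tested genes with a promoter.
Acot3: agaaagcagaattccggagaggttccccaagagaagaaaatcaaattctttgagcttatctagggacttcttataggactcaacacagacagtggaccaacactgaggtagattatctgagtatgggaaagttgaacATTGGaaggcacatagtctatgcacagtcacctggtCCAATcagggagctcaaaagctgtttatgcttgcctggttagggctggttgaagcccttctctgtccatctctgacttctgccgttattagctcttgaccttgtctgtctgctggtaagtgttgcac
Acaa1b: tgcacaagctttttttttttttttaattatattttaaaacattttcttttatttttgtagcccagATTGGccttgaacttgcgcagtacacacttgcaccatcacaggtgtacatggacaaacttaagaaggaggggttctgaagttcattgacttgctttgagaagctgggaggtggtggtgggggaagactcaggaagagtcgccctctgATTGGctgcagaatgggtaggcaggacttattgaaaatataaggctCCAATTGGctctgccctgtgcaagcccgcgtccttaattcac
Acaa1a: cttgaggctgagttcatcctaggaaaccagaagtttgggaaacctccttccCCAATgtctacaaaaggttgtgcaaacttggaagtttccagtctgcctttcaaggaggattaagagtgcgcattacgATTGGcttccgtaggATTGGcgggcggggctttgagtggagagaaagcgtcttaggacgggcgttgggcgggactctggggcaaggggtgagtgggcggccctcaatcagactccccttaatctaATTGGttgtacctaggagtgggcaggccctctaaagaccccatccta
Acot8: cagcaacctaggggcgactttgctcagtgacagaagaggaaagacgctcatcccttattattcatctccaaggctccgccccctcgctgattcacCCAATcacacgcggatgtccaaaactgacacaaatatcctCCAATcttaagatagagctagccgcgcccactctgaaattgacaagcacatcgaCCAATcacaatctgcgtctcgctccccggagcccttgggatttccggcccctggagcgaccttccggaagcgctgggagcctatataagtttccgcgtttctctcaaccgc
The thiolase promoters, for all that their transcripts share long stretches, were identical at 51.8% of aligned positions including gaps, close to the 46.8 to 51.5% of the other pairs between these genes. A match of letters is not shown to be a binding site, and sites beyond these windows were not searched.

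Beyond the 40 genes, 51 of 53 other genes of peroxisomal proteins were tested, with a median log2 fold change of 0.14. At an unadjusted p under 0.05, 8 of them were higher (15.7%, against 3.52% of all genes tested). On that threshold 2 were lower, against 3.93% of all genes. By edgeR 0 of them passed over all genes, and DESeq2 called 2 higher, against 0.508% of all genes. Ephx2, an epoxide hydrolase found in cytosol and peroxisomes, had 1127 and 886 CPM with CCl4+givinostat, against 621, 597 and 638 CPM with CCl4 (0.70 ± 0.16, SE; edgeR unadjusted p = 0.00191). Acsl1, a long-chain acyl-CoA synthetase, had 1368 and 1502 CPM with CCl4+givinostat, against 743, 889.8 and 1047 CPM with CCl4 (0.68 ± 0.18, SE; edgeR unadjusted p = 0.00465). Hao1, the peroxisomal glycolate oxidase, had 78.6 and 80.0 CPM with CCl4+givinostat, against 105, 131 and 139 CPM with CCl4 (-0.66 ± 0.16, SE; edgeR unadjusted p = 0.00382). Of 39 regulators and targets of PPARα outside the peroxisome, 37 were tested, with a median of 0.40. On the same unadjusted threshold 19 of them were higher (51.4%, against 3.52% of all genes) and 0 lower (against 3.93%). DESeq2 called 7 of them higher, against 0.508% of all genes. In that list Cyp4a14, a fatty acid omega-hydroxylase, had 6796 and 7041 CPM with CCl4+givinostat, against 2995, 1867 and 3401 CPM with CCl4, and Vnn1, a pantetheinase, had 111 and 133 CPM with CCl4+givinostat, against 46.7, 41.3 and 67.6 CPM with CCl4. Ppara itself had 247 and 242 CPM with CCl4+givinostat, against 225, 160 and 130.0 CPM with CCl4 (0.51 ± 0.22, SE; edgeR unadjusted p = 0.0491), and Rxra lay at -0.04 ± 0.16 (SE). These 2 were singled out after their values were seen.

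Among marker lists of liver zones and other cell types, the sums of the pericentral, mesothelial and cholangiocyte lists did not overlap between groups. The 4 pericentral markers summed to 3374 and 1885 CPM with CCl4+givinostat, against 1165 to 1374 CPM with CCl4, most of it Cyp2e1, which alone of the 4 had an unadjusted p under 0.05, while Glul overlapped between groups and Oat had a log2 fold change of -0.29. The 4 periportal markers summed to 1422 and 1310.0 CPM with CCl4+givinostat, against 1329 to 1728 CPM with CCl4. Mesothelial markers summed to 0.491 and 0.853 CPM with CCl4+givinostat, against 4.23 to 12.3 CPM with CCl4. Of them 5 of 5 were lower at an unadjusted p under 0.05, against 3.93% of all genes tested. Their counts were low, from 0 to 11 in the CCl4+givinostat libraries and from 12 to 76 in the CCl4 libraries. Except for Wt1, none exceeded 3 counts in a CCl4+givinostat library. The 6 cholangiocyte markers summed to 133 and 101 CPM with CCl4+givinostat, against 140.1 to 211 CPM with CCl4. Most of each sum was Spp1 (106 and 69.8 CPM with CCl4+givinostat, against 108 to 179 CPM with CCl4). Their median log2 fold change was -0.67, and 2 of 5 tested were lower on that threshold (Krt7 and Spp1). Krt19 (-1.22), Epcam (-0.13) and Sox9 (0.06) overlapped between groups. The 6 macrophage markers summed to 401 and 490.2 CPM with CCl4+givinostat, against 356 to 743 CPM with CCl4, and the 8 stellate cell markers to 190.2 and 154 CPM with CCl4+givinostat, against 168 to 279 CPM with CCl4. Both sums overlapped between groups. All 6 macrophage markers had a fitted value below 0 (median -0.26), 1 of them at an unadjusted p under 0.05. Of the 8 stellate cell markers 6 had a fitted value below 0 (median -0.49), none of them at an unadjusted p under 0.05, and Reln, the only one under it, was higher (0.56). The sums of the endothelial, neutrophil and lymphocyte lists overlapped as well, with no gene at an unadjusted p under 0.05. No marker of these lists was at 0 in every library. The part of these markers in the peroxisomal values was not tested.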

How the data were processed

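Liver RNA had been turned into libraries with the Illumina TruSeq kit, per the labels' protocols. The deposited values are the authors' read counts per gene, whole numbers with unequal library totals. Bowtie 0.12.2 and the builds mm8 and mm10 stand in the submitters' processing notes with no stated role. How reads were counted, with which annotation and whether by strand, is not given in the sources used here, so reads of overlapping genes cannot be told apart. Of the 24834 rows per library, 26 held a date instead of a symbol (0.144 to 0.169% of counts) and were dropped.

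Libraries were grouped by treatment label and fitted in R 4.3.3 with edgeR 4.0.16. The fit used filterByExpr defaults (13590 genes kept, all 40 members among them), TMM scaling, the quasi-likelihood test and treatment alone as term, with 3 residual degrees of freedom and a Benjamini-Hochberg threshold of 0.05. SE was taken as |log2 fold change| over the root of F. The fit was tested on simulated data. A library's floor was set at 3 counts, an approximate upper bound for a gene counted at 0 and not an absolute limit. This floor is 0.138 to 0.161 CPM and covers counting error only. No 2 libraries agreed within sampling noise. The design text calls them mice, and p-values measure the spread between them.

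Members and lists were chosen with earlier results of these data known. All members are named. Given in full are, for each role, the 2 smallest p-values and the highest CPM, with every member at an unadjusted p under 0.05, and at most 4 genes of smallest p from the other lists. The rule also takes genes not reported here. Positions, lengths and shared 50-base windows are from GENCODE M21 (GRCm38) and promoters from RefSeq (GRCm38.p6), matched by symbol. Promoter motifs were chosen after the values were seen. As alternatives, the fit was rerun with the replicate number as a block, RLE scaling, no filter, a filter of 10 counts, 1 library left out at a time, DESeq2 1.42.0 and an adjusted p of 0.1.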

Additional observations from a re-analysis of the deposited data

How the results depend on the processing

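Of the 40 genes, 34 kept the sign of their log2 fold change under all 10 alternative fits. Acox3, Abcd2, Pxmp2 and Pex13 changed sign with 1 library left out, ranging over -0.078 to 0.26, -0.50 to 0.068, -0.0047 to 0.48 and -0.016 to 0.18. Pex26 ranged over -0.21 to 0.13 and Abcd4 over -0.42 to 0.13, and with the replicate block they were at 0.036 and 0.17. The number past an adjusted p of 0.05 was 1 higher with the replicate block (68 higher and 77 lower over all 13590 genes), 2 higher with no low-count filter (23 and 15 of 17834), 3 higher and 1 lower by DESeq2 (69 and 79), and 0 to 2 higher with each library left out, the 2 without CCl4 replicate 1 (119 and 116 of 13453); RLE scaling, the stricter filter and an adjusted p of 0.1 gave 0. With the replicate block the number higher at an unadjusted p under 0.05 was 7 of 40 (3.12% of all genes), with 5 among the enzymes and carriers and 1 among the assembly factors, the median of the 40 was 0.19 and the class difference 0.19. With each library left out, those numbers were 7 to 17, 5 to 9 and 1 to 5, while the share of all genes ran from 1.41% without CCl4+givinostat replicate 1 to 7.8% without CCl4 replicate 1, where the 17 and the 5 assembly factors came, with 1 to 2 genes lower among the 40 and 0 to 1 among the enzymes and carriers. Medians then ranged over 0.17 to 0.25 for the 40, 0.17 to 0.22 for the assembly factors, 0.26 to 0.42 for the enzymes and carriers and 0.082 to 0.20 for the class difference. Where a CCl4+givinostat library is left out, 1 remains and is assumed to vary like the controls. The labels do not say that replicate numbers pair the mice, and the deviations of same-numbered libraries correlated at -0.148 and -0.0753. The cause of these changes was not tested. With 2 and 3 libraries, differences of the size seen for most assembly factors cannot be told from 0.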
